A study of Homo sapiens with 6 samples.

Results

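RPMI8226 is an established human multiple myeloma line, grown in medium with serum and treated for 72 h with 1 µM JQ1 or with DMSO, the solvent in which JQ1 was dissolved. The readout was the log fold change of H3K27ac between the JQ1 and the DMSO library, measured by chromatin immunoprecipitation and sequencing with a Diagenode antibody. All 838 regions of the authors' deposited table were kept, so none was chosen by its value, and each also carries a fold change for KMS-11 and for KMS-12, a pair of further myeloma lines treated in the same way. Each line has 1 sample per treatment, 6 in all, and the labels give the genotype of every one as WT. There was no replicate within a line. A fold change here compares 1 library with 1 other, has no error and was not tested. RPMI8226 and KMS-11 appear in full in the labels. The labels write KMS-12 with nothing after the number, and the line was not specified further.

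Acetylation of lysine 27 on histone H3 marks active promoters and enhancers. BET proteins bind acetylated histones through paired bromodomains and bring in the machinery that releases paused RNA polymerase, and JQ1 occupies the pocket that holds the acetyl group. Myeloma cells are malignant plasma cells, and like their normal counterparts they make immunoglobulin at a high rate. That work needs a large ER (endoplasmic reticulum), and the UPR (unfolded protein response) matches its folding capacity to the load through the sensors IRE1α, ATF6 and PERK. IRE1α splices the mRNA of XBP1, a transcription factor that turns on genes of folding, translocation and ER-associated degradation. PERK, like the amino acid sensor GCN2, acts through the integrated stress response (ISR), in which ATF4 turns on genes of amino acid uptake, amino acid synthesis and tRNA charging. RPMI8226 carries a rearrangement that activates MAF, a leucine zipper transcription factor. This is background, and it is not used here to set RPMI8226 apart from KMS-11 or KMS-12.

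Values are read as log2 of JQ1 over DMSO, so that a negative value is less H3K27ac after JQ1. The file itself states neither base nor direction. A value past -0.5 is one below it, the threshold that the list itself turns on. All 838 regions had values below 0 in all 3 lines, and in each of the 838 the deposited number of lines in common was also how many values were past -0.5. A region therefore stands in the list because at least 2 lines were past -0.5, and nothing is shown here of regions that gained H3K27ac. The table holds no level of H3K27ac, so the labelled cell type could not be checked by marker levels. Of 10 plasma cell markers IRF4, XBP1 and MZB1 had a listed region, and of 20 markers of B, T, myeloid and stromal cells 0 had one.

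The promoters below are shown because the regions over them carry the contrasts described later: the lowest values of RPMI8226, ER genes that were past -0.5, and genes of the ISR and of tRNA charging that were short of it in this line. Each is a window of 300 bases from RefSeq on GRCh38.p14, from 250 bases before to 50 after the gene's start, 5′ to 3′ on the gene's own strand. Windows lay under 485 of the 838 regions, with 742 windows of 619 genes. Matches to fixed letter strings on either strand are in capitals. They describe the letters of the window and do not show that a factor was bound.

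The first pair belongs to regions among the lowest of RPMI8226. The capitals in BHLHA15 (chr7:98211189-98211488, plus strand) mark the GC box GGGCGG, which binds SP-family factors, with 10 matches. Only the last 145 bases of this window lie under the region. The GC box was in 81.0% of the 742 windows and in 45.0% of all 35116 promoter windows. The capitals in LDHA (chr11:18394313-18394612, plus strand) mark the E-box CACGTG, the site of MYC, MAX and related factors, with 2 matches. The region covers the last 72 bases of the window, which hold neither match. The E-box was in 12.3% of the windows under regions and in 7.26% of all promoters.
BHLHA15: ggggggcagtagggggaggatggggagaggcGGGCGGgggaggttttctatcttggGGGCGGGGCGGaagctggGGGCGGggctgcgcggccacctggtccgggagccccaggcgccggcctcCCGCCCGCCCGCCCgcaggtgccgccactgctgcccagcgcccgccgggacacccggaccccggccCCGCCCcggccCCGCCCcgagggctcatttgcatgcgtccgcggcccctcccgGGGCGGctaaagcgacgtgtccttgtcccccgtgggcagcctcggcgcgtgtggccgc
LDHA: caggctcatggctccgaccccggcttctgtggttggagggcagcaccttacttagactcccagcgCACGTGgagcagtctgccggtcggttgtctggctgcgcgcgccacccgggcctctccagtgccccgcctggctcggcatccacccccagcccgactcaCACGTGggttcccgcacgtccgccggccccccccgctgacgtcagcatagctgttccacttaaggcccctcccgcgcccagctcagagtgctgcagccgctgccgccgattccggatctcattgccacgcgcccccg

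The next 4 promoters belong to ER genes. The capitals in SERP1 (chr3:150546447-150546746, minus strand) and XBP1 (chr22:28800520-28800819, minus strand) mark the ER stress element (ERSE), which pairs CCAAT with CCACG and is read by ATF6 and XBP1. It was in 0.539% of the windows under regions and in 0.0769% of all promoters, and each match shares its CCAAT with the CCAAT box. In SERP1 the match is on the opposite strand. The capitals in HYOU1 (chr11:119057156-119057455, minus strand) and FKBP11 (chr12:48924939-48925238, minus strand) mark the core of the UPR element (UPRE), TGACGTG, which was in 4.85% of the windows and in 1.97% of all promoters. All 4 windows lie wholly inside their regions.
SERP1: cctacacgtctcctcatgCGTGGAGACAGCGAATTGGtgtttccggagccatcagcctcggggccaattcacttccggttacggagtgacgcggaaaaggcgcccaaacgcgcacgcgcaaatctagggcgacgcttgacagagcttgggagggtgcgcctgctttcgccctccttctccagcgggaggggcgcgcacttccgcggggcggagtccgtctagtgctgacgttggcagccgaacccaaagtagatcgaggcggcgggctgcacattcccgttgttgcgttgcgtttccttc
XBP1: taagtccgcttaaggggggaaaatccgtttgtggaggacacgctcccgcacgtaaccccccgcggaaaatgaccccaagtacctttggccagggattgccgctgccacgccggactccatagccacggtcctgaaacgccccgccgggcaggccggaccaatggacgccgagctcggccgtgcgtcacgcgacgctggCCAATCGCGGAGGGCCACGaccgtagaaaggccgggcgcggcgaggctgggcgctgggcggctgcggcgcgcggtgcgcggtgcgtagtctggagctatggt
HYOU1: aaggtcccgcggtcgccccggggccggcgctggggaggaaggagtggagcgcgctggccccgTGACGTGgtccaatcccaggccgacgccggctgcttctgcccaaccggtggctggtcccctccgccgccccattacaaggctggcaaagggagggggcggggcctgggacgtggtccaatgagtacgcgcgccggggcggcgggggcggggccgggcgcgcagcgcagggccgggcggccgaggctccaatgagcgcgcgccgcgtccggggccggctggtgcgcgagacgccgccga
FKBP11: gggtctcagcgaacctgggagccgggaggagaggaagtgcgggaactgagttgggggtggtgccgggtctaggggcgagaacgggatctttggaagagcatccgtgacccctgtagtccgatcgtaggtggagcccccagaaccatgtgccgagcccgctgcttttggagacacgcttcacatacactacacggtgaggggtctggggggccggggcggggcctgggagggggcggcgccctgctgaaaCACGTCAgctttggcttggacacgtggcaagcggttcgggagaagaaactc

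The last 3 promoters belong to an ISR gene, CHAC1, and to the tRNA synthetase genes AARS1 and IARS1. The capitals in CHAC1 (chr15:40953221-40953520, plus strand), AARS1 (chr16:70289457-70289756, minus strand) and IARS1 (chr9:92293648-92293947, minus strand) mark the C/EBP-ATF response element (CARE), TGATGNAA, the site of ATF4 with its C/EBP partners. All 3 hold it on the opposite strand and with the same letters. It was in 2.43% of the windows under regions and in 3.62% of all promoters.
CHAC1: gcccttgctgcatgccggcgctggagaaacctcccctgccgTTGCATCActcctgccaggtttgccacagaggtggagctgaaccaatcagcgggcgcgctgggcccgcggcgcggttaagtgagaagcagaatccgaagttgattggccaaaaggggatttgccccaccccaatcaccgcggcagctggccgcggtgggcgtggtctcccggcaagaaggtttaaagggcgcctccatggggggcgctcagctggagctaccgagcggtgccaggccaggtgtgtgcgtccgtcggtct
AARS1: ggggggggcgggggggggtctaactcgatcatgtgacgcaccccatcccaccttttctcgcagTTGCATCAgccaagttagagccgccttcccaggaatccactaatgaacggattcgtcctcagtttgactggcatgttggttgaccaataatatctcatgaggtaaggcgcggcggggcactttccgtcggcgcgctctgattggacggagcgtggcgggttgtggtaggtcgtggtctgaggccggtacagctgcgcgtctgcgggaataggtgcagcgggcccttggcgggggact
IARS1: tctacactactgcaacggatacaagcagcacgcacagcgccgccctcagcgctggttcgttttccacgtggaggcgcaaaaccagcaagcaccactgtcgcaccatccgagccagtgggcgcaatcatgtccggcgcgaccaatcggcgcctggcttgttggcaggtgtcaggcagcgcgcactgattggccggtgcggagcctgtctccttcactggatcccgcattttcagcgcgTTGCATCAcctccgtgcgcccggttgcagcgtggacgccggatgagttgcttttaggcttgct

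Over the 838 regions, H3K27ac in RPMI8226 was lower after JQ1 by a median of 0.56 on the log2 scale, 32.3% less signal. In the authors' deposited table the RPMI8226 values ran from -1.62 to -0.0012, with quartiles at -0.71 and -0.37. The median was -0.66 in KMS-11 and -0.69 in KMS-12. The difference between the lines was largest in the tail. Past -1 there were 37 regions in RPMI8226, 4.42% of all, against 113 in KMS-11 and 178 in KMS-12. The lowest single value was -1.96 in KMS-11 and -3.86 in KMS-12. At the other end, 44 regions lay above -0.1 in RPMI8226, against 17 and 36. The sources used here do not give how the authors scaled the libraries. A difference in scaling and a weaker loss in RPMI8226 cannot be told apart from medians alone.

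**Figure D1:**
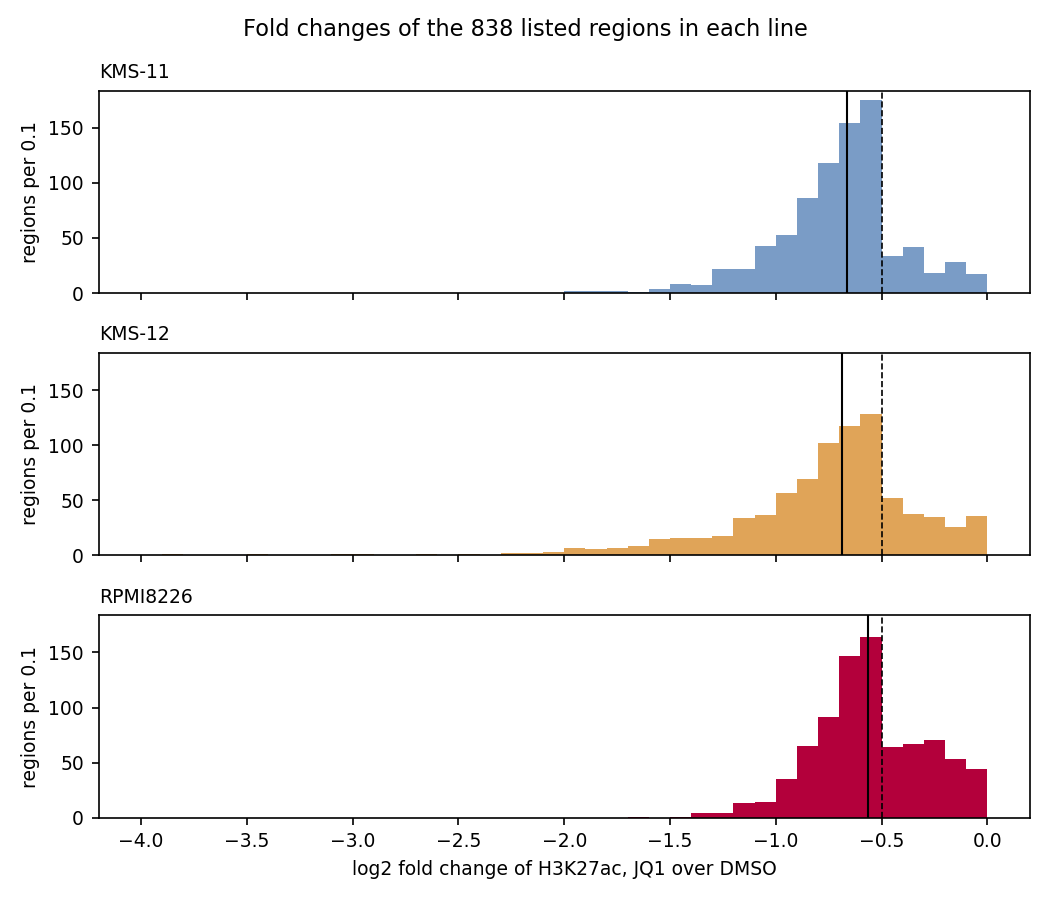
Number of regions per 0.1 of log2 fold change of H3K27ac, JQ1 over DMSO, for the 838 regions in KMS-11, KMS-12 and RPMI8226, 1 JQ1 and 1 DMSO library per line. The solid line is the median and the dashed line is -0.5; RPMI8226 has 37 regions past -1 and 299 between -0.5 and 0.

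RPMI8226 was past -0.5 in 539 regions, 64.3% of the list, and was the line that most often stayed short of it. Of the 512 regions past -0.5 in both KMS lines, 213 were also past it in RPMI8226, 41.6%, with a median of -0.43 there. The same share was 53.2% for KMS-12 among the 400 regions past -0.5 in KMS-11 and RPMI8226, and 60.5% for KMS-11 among the 352 regions past it in KMS-12 and RPMI8226. The 299 regions listed for the KMS lines alone had a median of -0.28 in RPMI8226. Of the 49 regions past -1 in both KMS lines, 29 were past -0.5 in RPMI8226 and 5 were past -1.

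The depth of loss in RPMI8226 followed neither of the other lines closely. In the 213 regions past -0.5 in all 3 lines, which the list's rule ties least, Spearman's rho across regions was 0.17 with KMS-11 and 0.09 with KMS-12, and Pearson's r was 0.23 and 0.18. The regions are not independent, and all of a line's values share its libraries. In these 213 regions the values of all 3 lines are cut at -0.5, which narrows their range. KMS-11 was not set against KMS-12 in this way, so weak agreement is not shown to be particular to RPMI8226. The 84 regions lowest in RPMI8226, with a median of -0.98, had medians of -0.69 in KMS-11 and -0.64 in KMS-12. The 84 nearest to 0, with a median of -0.09, had medians of -0.67 and -0.83. The list's rule bears on this order, since a region near 0 in RPMI8226 had to be past -0.5 in both other lines.

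**Figure D2:**
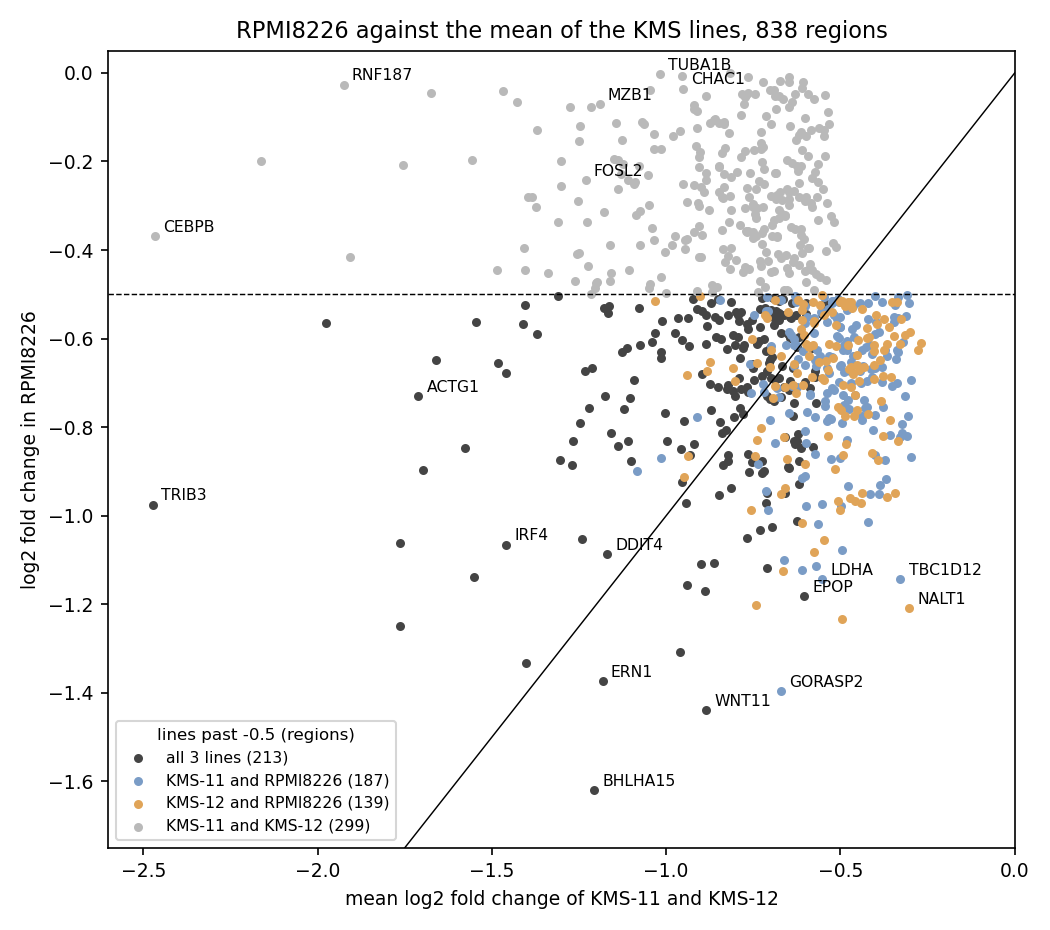
Log2 fold change of H3K27ac in RPMI8226 (vertical) against the mean of KMS-11 and KMS-12 (horizontal) for the 838 regions, coloured by the lines past -0.5. The diagonal marks equal values and the dashed line -0.5; TRIB3 and CEBPB lie far to the left, and WNT11, GORASP2 and NALT1 lie below the diagonal.

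The lowest value of RPMI8226 lay over BHLHA15, and GORASP2, ERN1 and RTN3 were also among the 5 lowest. BHLHA15 encodes MIST1, a basic helix-loop-helix factor that enlarges the secretory apparatus of plasma and exocrine cells. Its region (chr7:98211344-98212404) had -1.62 in RPMI8226, -1.65 in KMS-11 and -0.76 in KMS-12 in the authors' deposited table. GORASP2, a protein that stacks the Golgi cisternae, had -1.40 in RPMI8226 and -1.22 in KMS-11 but -0.13 in KMS-12 (chr2:170929166-170930157). ERN1 encodes IRE1α. A region inside the gene (chr17:64128938-64130117) had -1.37 in both RPMI8226 and KMS-12, and -0.99 in KMS-11. RTN3, a reticulon that shapes ER tubules, had -1.33 in RPMI8226, -0.82 in KMS-11 and -1.98 in KMS-12 (chr11:63689469-63690050), and -0.69 in RPMI8226 at its other region. RPMI8226 and KMS-11 were thus alike at BHLHA15 and GORASP2, and RPMI8226 and KMS-12 at ERN1.

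The rest of the 18 lowest regions belonged to genes of varied function. WNT11, a secreted signalling ligand, had the second lowest value of the line, -1.44, with -0.57 in KMS-11 and -1.20 in KMS-12 (chr11:76208461-76209549). H4C15, a histone H4 gene with near-identical copies, had -1.31, -1.16 and -0.76 in RPMI8226, KMS-11 and KMS-12. A region outside genes on chromosome 19 (chr19:14247789-14249277), 41620 bp from ADGRL1, had -1.249 in RPMI8226 and was lower still in KMS-11, -1.57, and KMS-12, -1.96. XPO6, the exporter of nuclear actin, had -1.20 in RPMI8226, -0.45 in KMS-11 and -1.04 in KMS-12. HAGHL had -1.14 in RPMI8226 and KMS-11 and -1.96 in KMS-12. Of the 37 regions past -1 in RPMI8226, 28 had their lowest value of the 3 lines there, against 181 of all 838. The 37 were picked by that same RPMI8226 value, which favours such a count. Of the 37, 18 lay inside a gene, 13 across a gene boundary and 6 outside genes. Over all 838 regions, 335 lay inside, 422 across a boundary and 81 outside.

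**Figure D3:**
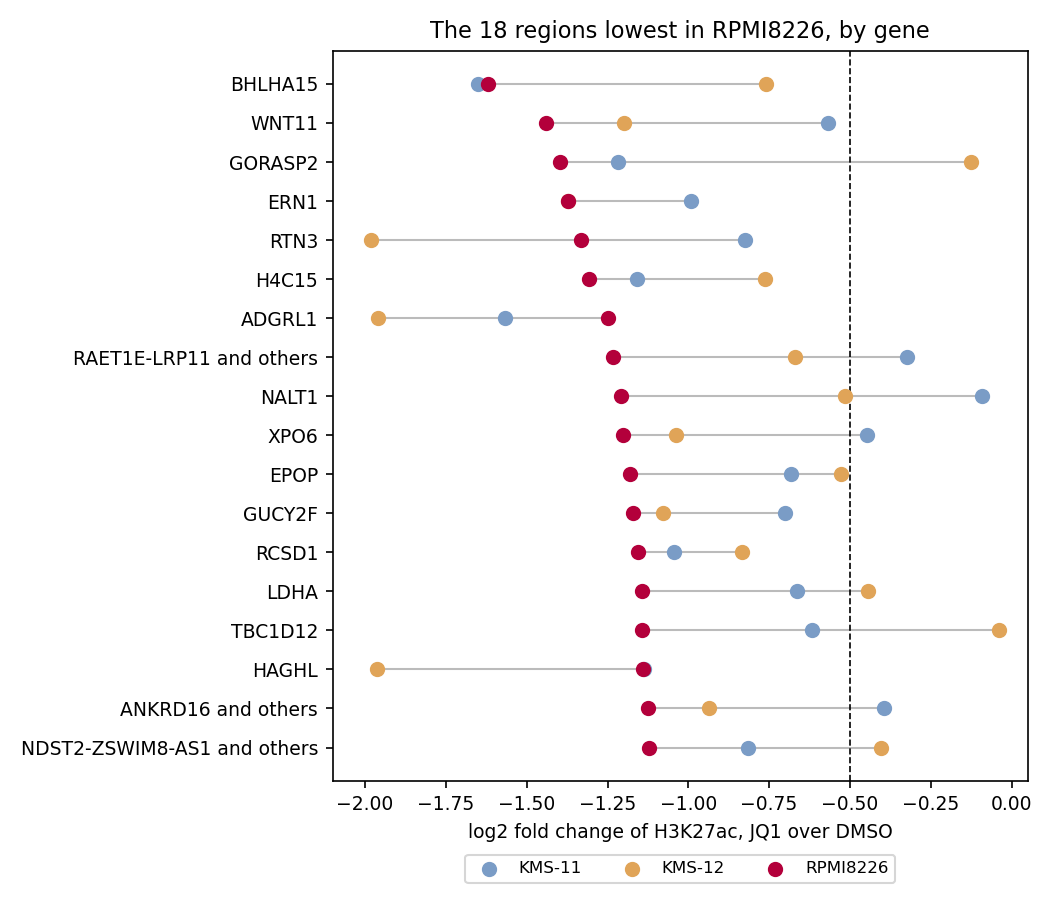
Log2 fold change of H3K27ac in KMS-11, KMS-12 and RPMI8226 for the 18 regions lowest in RPMI8226, 1 row per region, named by the gene it overlaps or, with none, the nearest gene. The dashed line is -0.5; RPMI8226 runs from -1.62 at BHLHA15 to -1.12 in the bottom row, and the KMS-12 point of ERN1 and the KMS-11 point of HAGHL lie under those of RPMI8226.

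Regions much lower in RPMI8226 than in both other lines were few. RPMI8226 was the lowest of the 3 lines in 181 regions, lower than both by 0.3 or more in 25, and by 0.5 or more in 4. The widest margin lay 122 bp outside NALT1, a long non-coding RNA beside NOTCH1 (chr9:136546354-136547720), with -1.21 in RPMI8226, -0.09 in KMS-11 and -0.51 in KMS-12. The region over LRP11 and RAET1E-AS1 (chr6:149863435-149864264) had -1.23 in RPMI8226 against -0.32 and -0.67. TBC1D12, which holds a domain of Rab GTPase-activating proteins, had -1.14 against -0.62 in KMS-11 and -0.04 in KMS-12. EPOP, a partner of the Polycomb complex PRC2, had -1.18 against -0.68 and -0.53 (chr17:38673707-38674909).

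LDHA, the lactate dehydrogenase subunit that makes lactate at the end of glycolysis, was among these regions. Its region (chr11:18394541-18395667) had -1.14 in RPMI8226, -0.66 in KMS-11 and -0.45 in KMS-12 in the authors' deposited table. FKBP5, a co-chaperone of the glucocorticoid receptor, had -0.95 against -0.56 and -0.22. PRDX4, a peroxidase of the ER, had -0.98 against -0.60 and -0.39. FZD5, a Wnt receptor, had -0.97 against -0.35 and -0.57. IPMK, an inositol phosphate kinase, had -0.99 against -0.49 and -0.52. In each of these 5 regions 1 KMS line was short of -0.5, KMS-12 at LDHA, FKBP5 and PRDX4 and KMS-11 at FZD5 and IPMK.

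Regions much nearer to 0 in RPMI8226 were more common, 229 by 0.3 or more and 117 by 0.5 or more. The list's rule bears on this, since it puts at least 2 lines past -0.5 and leaves the other free to lie near 0. TUBA1B, an α-tubulin gene, had -0.0019 in RPMI8226, -1.15 in KMS-11 and -0.89 in KMS-12 (chr12:49130414-49131393). MZB1, an ER co-chaperone of plasma cells that assists immunoglobulin assembly, had -0.07 against -1.40 and -0.99 (chr5:139388469-139389777). GADD45A, a stress-induced growth arrest gene, had -0.30 against -1.247 and -1.50. FOSL2, an AP-1 subunit, had -0.24 against -1.28 and -1.18. CCPG1, a receptor for autophagy of the ER, had -0.29 against -1.21 and -1.30 at 1 region and -0.60 in RPMI8226 at its other. RNF187, a ubiquitin ligase, had -0.03 in RPMI8226, -0.91 in KMS-11 and -2.94 in KMS-12. At each of these regions but the other one of CCPG1, RPMI8226 was at -0.30 or nearer to 0. The list's rule then required both KMS lines to be past -0.5.

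Other genes near 0 in RPMI8226 included TRIM47 (-0.01), SOX11 (-0.01), H2AX with DPAGT1 (-0.01), PRIM1 (-0.02) and MCRIP2 (-0.03) in the authors' deposited table. CITED2, a partner of the acetyltransferases CBP and p300, had -0.40 in RPMI8226, -1.22 in KMS-11 and -1.59 in KMS-12. BEND3, a heterochromatin protein, had -0.20 against -1.44 and -1.16. A region on chromosome 4 (chr4:49709356-49711895), 501121 bp from the nearest gene, had the widest gap, -0.04 in RPMI8226 against -1.71 and -1.64. It lies beside the centromere, where repeats make the placing of reads uncertain.

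Genes were read through 20 lists, each gene by the region with its lowest RPMI8226 value. The KMS-11 and KMS-12 values of a gene were read at that same region, which need not be their own lowest. For genes with several regions the choice therefore leans toward RPMI8226, also in the counts over all genes. Of the 1029 genes assigned to regions, 678 had a region past -0.5 in RPMI8226, 65.9%, with a median of -0.57. Of the 615 genes past -0.5 in both KMS lines, 264 were past it in RPMI8226, 42.9%. Over all lists 103 genes had a region and 70 were past -0.5 in RPMI8226. With 1 library per group these counts describe the list of regions, and the lists were made with results of these data known.

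**Figure D4:**
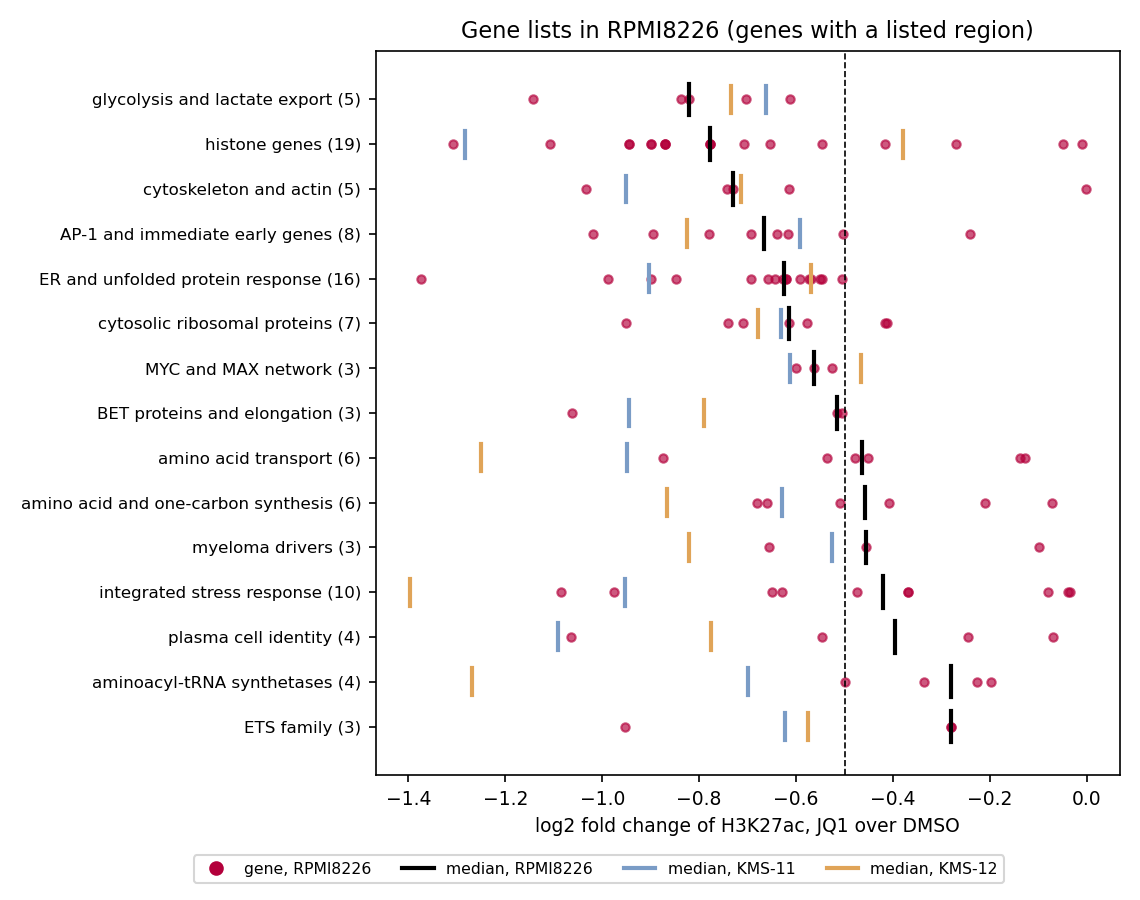
Log2 fold change of H3K27ac in RPMI8226 for each gene with a listed region (points), in the lists with 3 or more such genes, with the median of RPMI8226, KMS-11 and KMS-12 as bars and -0.5 dashed. The number in brackets counts genes; the RPMI8226 median runs from -0.82 for glycolysis to -0.28 for aminoacyl-tRNA synthetases and the ETS family.

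The listed ER genes were past -0.5 in RPMI8226, most of them by little. Of 40 genes of ER folding, degradation and the UPR, 16 had a region, and these 16 were past -0.5 in RPMI8226, with a median of -0.62, against 65.9% of all assigned genes. ER genes outside the list were not all past it, as given below for MZB1, TXNDC5 and ATP2A2. The same 16 were past it in KMS-11, with a median of -0.90, and 11 in KMS-12, with a median of -0.57. The 11 past it in both KMS lines were 11 of 11 past it in RPMI8226, against the 42.9% of all such genes, and the rule of the deposited list required the other 5 to be past it in RPMI8226. At -0.75, 4 of 16 were past in RPMI8226.

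Behind ERN1, the ER genes with the lowest values in RPMI8226 act in folding and disposal. P4HB, the protein disulfide isomerase, had -0.99 in RPMI8226, -0.95 in KMS-11 and -0.47 in KMS-12 in the authors' deposited table. EDEM3, which trims sugars from misfolded proteins, had -0.90 in RPMI8226 and -0.56 in KMS-12. SEL1L, the adaptor of the ER degradation ligase HRD1, had -0.85 in RPMI8226, -1.30 in KMS-11 and -1.85 in KMS-12, and -0.52 at its other region in RPMI8226. HYOU1, an ER chaperone of the HSP70 family whose promoter is printed above, had -0.64, -1.13 and -0.90 in RPMI8226, KMS-11 and KMS-12. The XBP1 region had -0.55 in RPMI8226, -1.08 in KMS-11 and -0.57 in KMS-12. CALR, an ER lectin chaperone, had -0.57. SEC61G, a subunit of the translocation channel, was the ER gene nearest to the threshold, with -0.50 in RPMI8226, -1.21 in KMS-11 and -0.05 in KMS-12.

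ER genes outside the list, named after their values were seen, lay on both sides of the threshold. SERP1, which binds the translocation channel, had -0.72 in RPMI8226, -1.12 in KMS-11 and -0.39 in KMS-12. FKBP11, a prolyl isomerase of secretory cells, had -0.73, -1.05 and -1.16. TXNDC5, a protein disulfide isomerase whose promoter also holds the UPRE core, was short of the threshold with -0.39 in RPMI8226, against -1.33 in KMS-11 and -0.99 in KMS-12. ATP2A2, the calcium pump of the ER, had -0.37 against -1.003 and -0.79. MZB1 had -0.07, as given above. The 3 regions whose promoters held the ERSE, over SERP1, CALR and XBP1, were all past -0.5 in RPMI8226. KMS-12 was short of it at SERP1 and CALR, so the rule of the deposited list required RPMI8226 to be past it there. The 28 regions with the UPRE core had a median of -0.62 in RPMI8226, against -0.57 in the 457 without it. In KMS-11 the same medians were -0.72 and -0.65, and in KMS-12 -0.78 and -0.65. RPMI8226 was past -0.5 in 20 of the 28, 71.4%, against 64.3% of all regions.

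The ISR genes were past -0.5 in both KMS lines, and in RPMI8226 about as often as other such genes. All 10 ISR genes with a region, of 24 in the list, were past -0.5 in KMS-11 and in KMS-12, and 4 of the 10 were past it in RPMI8226, a share near the 42.9% of all genes past it in both KMS lines. Their medians were -0.42 in RPMI8226, -0.95 in KMS-11 and -1.40 in KMS-12. RPMI8226 had the value nearest to 0 in 8 of the 10, which lie on 9 distinct regions. By the list's rule this can occur only where both KMS lines are past -0.5. The same held for 479 of the 615 genes past it in both KMS lines, a share near that of the ISR genes. The ISR count was also 8 after each line's own median was subtracted, for which the matching share is not given.

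The ISR genes split in RPMI8226. DDIT4, an inhibitor of the growth kinase complex mTORC1, had -1.09 in RPMI8226, -1.02 in KMS-11 and -1.32 in KMS-12 in the authors' deposited table. TRIB3, a pseudokinase that restrains AKT and ATF4, had -0.97 against -1.53 and -3.42. Its other region was short of -0.5 in RPMI8226, so 3 of the 10 ISR genes were past it when every region of a gene had to pass. ATF4 itself had -0.65 against -0.82 and -0.58, and DDIT3, which encodes CHOP, had -0.63. SESN2, a leucine sensor, had -0.47. CEBPB, a C/EBP partner of ATF4, shared 1 region with its antisense gene and had -0.37 against -1.07 and -3.86. STC2 had -0.08, and BBC3, which encodes the cell death protein PUMA, had -0.04. CHAC1, which breaks down glutathione, had -0.04 in RPMI8226, -0.59 in KMS-11 and -1.32 in KMS-12.

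The genes that supply amino acids were also on both sides of the threshold. In amino acid transport, 6 of 19 genes had a region and 2 were past -0.5 in RPMI8226, SLC7A5 (-0.88) and SLC1A4 (-0.54). Of all assigned genes, 65.9% were past it. Of the 5 transport genes past it in both KMS lines, 1 was past it in RPMI8226, against 42.9% of all such genes. SLC1A4 had -0.42 in KMS-12, so the rule of the deposited list required RPMI8226 to be past -0.5 there. SLC3A2, the partner chain of SLC7A5 in the transporter of large neutral amino acids, had -0.14 in RPMI8226, -0.95 in KMS-11 and -1.12 in KMS-12. SLC6A9, a glycine transporter, had -0.13 against -0.95 and -1.79, and SLC1A5, a glutamine transporter, had -0.45 against -1.20 and -1.48. In amino acid and one-carbon synthesis 3 of the 6 genes with a region were past -0.5 in RPMI8226, PSAT1 (-0.68), CTH (-0.66) and ALDH18A1 (-0.51). Of the 4 synthesis genes past it in both KMS lines, 1 was past it in RPMI8226. KMS-11 was short of it at PSAT1 and CTH, so the rule required RPMI8226 to be past it there. PSAT1 and CTH are steps of serine and cysteine synthesis. SHMT2 had -0.41, ALDH1L2 -0.21 and PYCR1 -0.07.

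Of the aminoacyl-tRNA synthetases, which load tRNAs with amino acids, 4 of 23 had a region and 0 were past -0.5 in RPMI8226. The rule of the deposited list therefore required these 4 to be past it in each KMS line. Of all genes past it in both KMS lines, 42.9% were past it in RPMI8226. IARS1 had -0.498 in RPMI8226, just short of the threshold, with -0.78 in KMS-11 and -1.65 in KMS-12. WARS1 had -0.34, AARS1 -0.23 and SARS1 -0.20. AARS1 had -0.64 in KMS-11 and -0.88 in KMS-12. The 4 lists of the ISR and amino acid genes, put together after their values were seen, held 26 genes on 25 regions. RPMI8226 was past -0.5 in 9 of them, KMS-11 in 24 and KMS-12 in 25. Of the 23 past it in both KMS lines, 6 were past it in RPMI8226, against 264 of 615 over all genes.

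**Figure D5:**
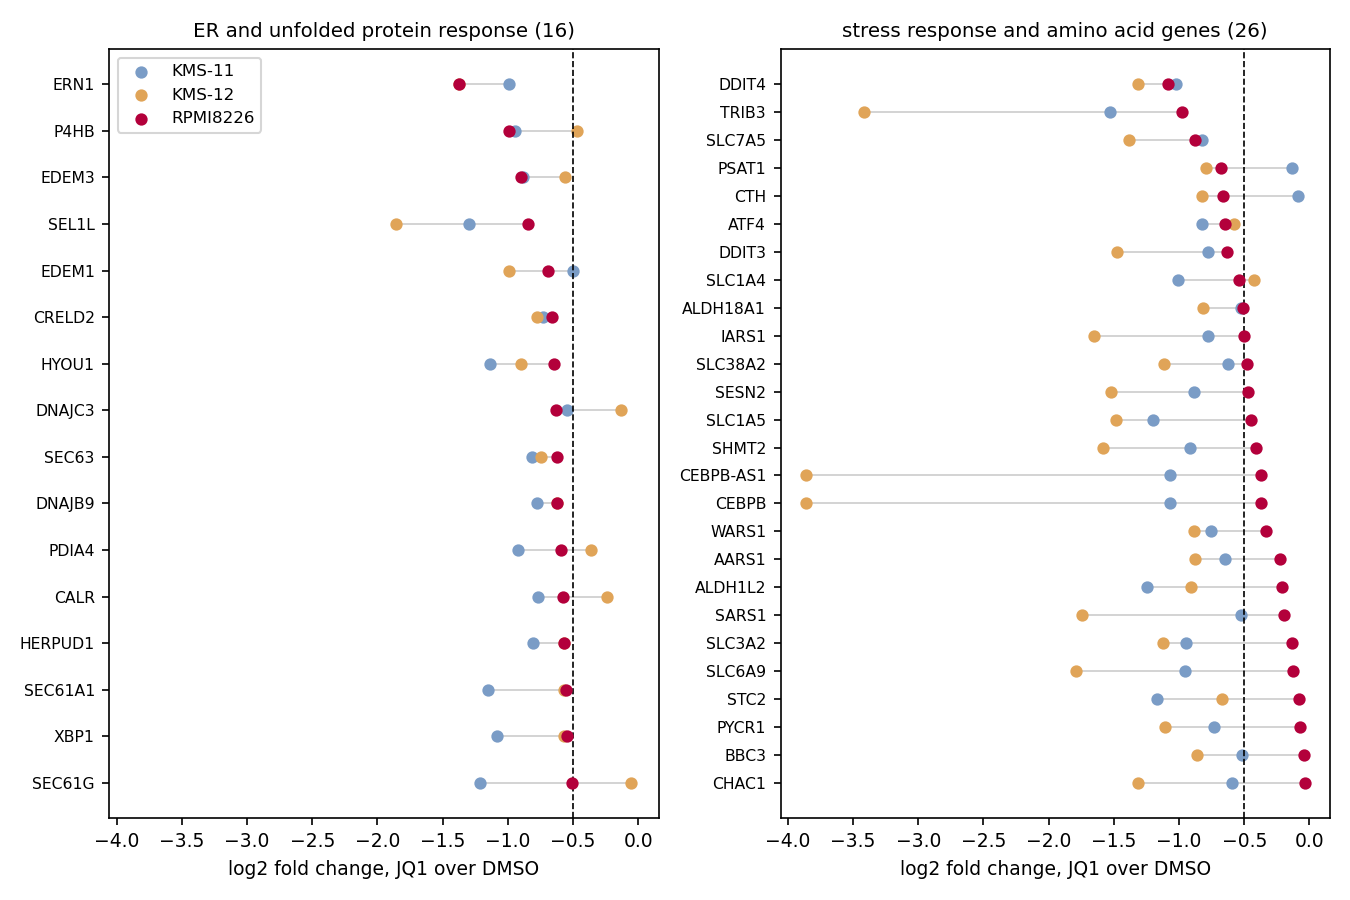
Log2 fold change of H3K27ac in KMS-11, KMS-12 and RPMI8226 for the 16 ER and UPR genes (left) and the 26 ISR and amino acid genes (right) with a listed region, ordered by RPMI8226, with -0.5 dashed. On the left every RPMI8226 point lies past -0.5; on the right 9 do, and the lowest KMS-12 points are CEBPB at -3.86 and TRIB3 at -3.42.

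The 18 regions over a promoter with the CARE had medians of -0.52 in RPMI8226, -0.86 in KMS-11 and -0.97 in KMS-12. The 467 regions over promoters without it had -0.57, -0.65 and -0.65. RPMI8226 was past -0.5 in 9 of the 18, and in 6 of the 15 that were past it in both KMS lines, a share near the 41.6% of all such regions. The 12 regions with the MAF recognition string TGCTGAC had a median of -0.63 in RPMI8226, against -0.57 for the rest. In KMS-11 the median was -0.66 in both groups, and in KMS-12 it was -0.82 with the string against -0.66 without. That string was in 1.75% of the windows under regions and in 4.19% of all promoters. The 74 regions with an E-box had -0.57, as had the 411 without.

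Of 24 glycolysis genes 5 had a region, and these 5 were past -0.5 in RPMI8226, against 65.9% of all assigned genes and 3 of the 5 in each KMS line. Only 1 of them was past it in both KMS lines, so the rule of the deposited list required the other 4 to be past it in RPMI8226. The list had medians of -0.82, -0.66 and -0.73 in RPMI8226, KMS-11 and KMS-12. Beside LDHA these were HK2, the first enzyme of the path, with -0.84, PKM, a pyruvate kinase, with -0.82, SLC16A3, a lactate exporter, with -0.70, and PFKP, a phosphofructokinase, with -0.61. RPMI8226 was the lowest line at 2 of the 5, LDHA and PKM, which had -0.34 in KMS-11 and -0.73 in KMS-12. HK2 was lower in KMS-11, -0.91, PFKP in KMS-12, -0.86, and SLC16A3 in both, -0.79 and -0.85.

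Immediate early genes and the cytoskeleton were mixed. Of 8 AP-1 and immediate early genes with a region, 7 were past -0.5 in RPMI8226, 7 in KMS-11 and 4 in KMS-12. Of all assigned genes, 65.9% were past it in RPMI8226. JUND had -1.02 in RPMI8226, -0.69 in KMS-11 and -0.44 in KMS-12, and JUNB had -0.78, -0.59 and -0.47. FOSL2 was the exception. Of the 3 past it in both KMS lines, 2 were past it in RPMI8226, and the rule of the deposited list required the rest of the 8 to be past it there. Of 5 cytoskeleton genes, 4 were past it, led by CFL1, the actin-severing cofilin, with -1.03 in RPMI8226, -0.75 in KMS-11 and -0.71 in KMS-12. ACTG1 had -0.73, TMSB4X -0.74 and TUBB4B -0.61, and TUBA1B stayed near 0. Here too 3 were past -0.5 in both KMS lines, 2 of these were past it in RPMI8226, and the rule required the rest to be.

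Histone genes stood between the KMS lines. Of 93 histone genes 19 had a region, on 13 distinct regions, since neighbours in the clusters share one. In RPMI8226 15 genes were past -0.5, 78.9% against 65.9% of all assigned genes, with a median of -0.78. In KMS-11 it was 19, with -1.28, and in KMS-12 6, with -0.38. Of the 6 past it in both KMS lines, 2 were past it in RPMI8226. The rule of the deposited list required the rest of the 19 to be past it there. The region over H2AC7, H2BC7 and H3C4 had -0.87 in RPMI8226, -1.85 in KMS-11 and -0.18 in KMS-12. These genes have near-identical copies, and the sources used here do not say how reads matching several copies were placed. Of 7 ribosomal protein genes 5 were past -0.5 in RPMI8226, led by RPL8 with -0.95 against -0.56 in KMS-11 and -0.27 in KMS-12. Of the 3 past it in both KMS lines, 1 was past it in RPMI8226, and the rule required the rest of the 7 to be past it there.

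The plasma cell regulators with a region differed from each other. IRF4, on which myeloma cells depend, had -1.07 in RPMI8226, -1.10 in KMS-11 and -1.81 in KMS-12 in the authors' deposited table (chr6:391794-393844). XBP1 was just past -0.5, POU2F1 had -0.25 and MZB1 -0.07. All 4 genes were past -0.5 in both KMS lines, as the list's rule required of POU2F1 and MZB1. MYC, MAF and the lncRNA gene LINC00582 had no listed region, so nothing is shown here of their H3K27ac. FLI1, an ETS factor named in the study's title, shared 1 region with SENCR and had -0.28 in RPMI8226, -0.62 in KMS-11 and -0.58 in KMS-12. ERF, an ETS repressor, had -0.95 in RPMI8226. In the MYC and MAX network 3 genes had a region, MXI1 (-0.60), MNT (-0.56) and MXD4 (-0.53), all of which encode partners of MAX that oppose MYC. Each was short of -0.5 in 1 KMS line, MXI1 in KMS-11 (-0.23), MNT (-0.47) and MXD4 (-0.25) in KMS-12. The list's rule therefore required all 3 to be past -0.5 in RPMI8226.

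The remaining lists had few regions. TCEA1, an elongation factor, had -1.06 in RPMI8226, -1.10 in KMS-11 and -2.43 in KMS-12, while CDK13 and AFF1, also of elongation, both had -0.51 in RPMI8226. A region nearest to PIM3, a kinase gene, had -0.66, and IGF1R, a growth factor receptor, had -0.45. A region outside genes, nearest to the histone methyltransferase gene NSD2, had -0.10 in RPMI8226, -0.60 in KMS-11 and -0.82 in KMS-12. HSPD1 (-0.44) and BAG3 (-0.41), chaperone genes, were short of the threshold in RPMI8226 and so, by the list's rule, past it in both KMS lines. No gene of the NF-κB list (24 genes) or the cell cycle list (31 genes) had a region.

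At some genes RPMI8226 separated neighbouring regions that the KMS lines did not. Over H3-3A, which encodes histone H3.3, regions 359 bp apart had -0.11 and -1.11 in RPMI8226, against -0.79 and -0.85 in KMS-11 and -0.88 at both in KMS-12. At DDIT4 and its antisense gene, regions 431 bp apart had -1.09 and -0.32 in RPMI8226, against -1.02 and -0.998 in KMS-11 and -1.32 and -1.17 in KMS-12. Over PTMA, a chromatin-associated prothymosin gene, regions 470 bp apart had -0.12 and -0.83, and here the KMS lines differed in the same direction. Such gaps were not general to RPMI8226. Over the 15 pairs within 2 kb the median absolute difference was 0.27 in RPMI8226, 0.27 in KMS-11 and 0.46 in KMS-12, and RPMI8226 differed most in 4 of the 15.

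Position in or near genes made little difference in RPMI8226, and width some. The median was -0.57 for regions across a gene boundary, -0.56 inside genes and -0.55 outside them. By width, in 4 groups of 209 or 210 regions from the narrowest to the widest, the share past -0.5 was 68.1%, 69.9%, 64.1% and 55.2%, and the medians were -0.58, -0.60, -0.55 and -0.53. In KMS-12 the medians went the other way, from -0.63 in the narrowest group to -0.75 in the widest. Protein coding genes had a median of -0.59 with 551 of 824 past -0.5, and long non-coding RNA genes had -0.55 with 127 of 205.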

How the data were processed

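H3K27ac was measured in 6 libraries, 1 DMSO and 1 JQ1 (1 µM, 72 h) for each of 3 lines. The authors deposited 1 table with a log fold change per line, read here as log2 of JQ1 over DMSO because the submitters' processing notes name DESeq2, which reports log2 values. The same notes name MACS2, hg38 and GRCh38.p13, with no role for any. The sources used here do not give the aligner, the peak settings or the scaling between libraries. The deposited table also holds the number of lines in common, and no counts, so depth and error are unknown. The design text writes KMS-111 where the labels write KMS-11, and its duplicates refer to RNA-seq.

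Regions were assigned to each protein coding or lncRNA gene they overlap on the RefSeq table of GRCh38.p14 or, with none, to the nearest, with coordinates left as deposited. The promoter table covers part of the genes, and those on chromosome 8 were not used here. Counts and medians were computed with Python 3.11.15, pandas 2.3.3, numpy 2.4.6 and scipy 1.17.1. The gene assignment was tested on simulated data, as was the share for the remaining line among regions past the threshold in both others. Named genes came from the 25 regions lowest in RPMI8226, the 10 nearest to 0, the 15 widest margins in each direction and up to 6 members per list, with MYC, MAF, FLI1 and IRF4 in any case. SERP1, FKBP11, TXNDC5, ATP2A2, AARS1, DDIT4-AS1 and PTMA, and genes shown for their promoters or as neighbours, were chosen after their values were seen. The regions, lists and rules were chosen with earlier results of these data known. Some regions are not reported here.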

Additional observations from a re-analysis of the deposited data

How the results depend on the processing

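The fold changes are the authors' and rest on 1 library per line and treatment, so each alternative below changes only how they are counted. The 539 regions past -0.5 in RPMI8226 became 175 at -0.75 and 37 at -1, and 678 when genes were counted. Among regions past the threshold in both KMS lines, the RPMI8226 share of 41.6% became 21.2% at -0.75, 54.1% without KMS-11 and 57.2% without KMS-12. RPMI8226 was lowest of the lines in 181 regions, in 272 with each line minus its own median, 288 with each divided by it and 305 by rank, and was the lower line in 314 without KMS-11 and 300 without KMS-12. The 25 regions lower in RPMI8226 by 0.3 became 65 after subtracting medians, 160 without KMS-11, 124 without KMS-12 and 4 at a margin of 0.5. The 229 nearer to 0 became 163 after subtracting medians, 336 without KMS-11, 299 without KMS-12 and 117 at a margin of 0.5. Regions nearer to 0 outnumbered those lower under each of these settings, but all of them kept the same list. Its rule leaves 1 line free to lie near 0, whichever line that is, and the same counts are not given for the KMS lines. List members past -0.5 numbered 70, 74 with genes within 1 kb, 62 with an overlap of 0.5 or more of the region's width, 68 when every region of a gene had to pass (added after seeing the data) and 30 at -0.75. For the ER list, subtracting medians moved the genes lowest in RPMI8226 from 4 to 5 of 16 and those nearest to 0 there from 8 to 2. No paired analysis was possible because the table used here has no values per sample, though each deposited fold change already sets a line's JQ1 library against its own DMSO library.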
